A study of Rattus norvegicus with 21 samples.

Results

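Hepatokines are proteins that the liver releases into blood and that act on fat, muscle, brain or the liver itself. The 8 described here are Fgf21, Inhbe, Angptl4, Angptl8, Gdf15, Lect2, Fetub and Rbp4, each linked to obesity or its complications. They were taken by gene symbol from the deposited expression tables, which hold 32623 genes. Of the 9 hepatokines listed for this description, Ahsg was not analysed here. Each of the 8 symbols occurred once in each table.

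The study sequenced liver RNA of 21 rat samples, in 7 groups of 3 libraries. Wistar controls and Wistar rats weaned early were sampled at day 23 and again, in separate libraries, at day 63. Sprague Dawley (SD) controls, early weaned rats, and early weaned rats given 1.5% leucine, a branched-chain amino acid, in their drinking water were sampled at day 211. The labels give the strain, tissue, age and treatment, and say neither on which day pups were weaned, nor their sex, nor at what age or for how long leucine was given. Strain, age and table change together between the Wistar and the SD libraries, so an effect of age cannot be told apart from one of strain between day 63 and day 211, and those levels are only set side by side. Whether each library is a rat of its own is not in the labels, so a p-value reflects only how these libraries vary. In whole liver, fewer cells of a type and less RNA per cell cannot be told apart.

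Fgf21 is a fasting and stress hormone that signals through the receptor FGFR1 with its coreceptor beta-Klotho, and Gdf15 is a stress-induced cytokine whose receptor GFRAL sits in the brainstem. Angptl4 and Angptl8 restrain lipoprotein lipase, the enzyme that frees fatty acids from circulating triglyceride, Angptl4 being induced by PPAR alpha in fasting and Angptl8 by feeding and insulin. Inhbe encodes the beta subunit of activin E, which signals through activin receptors in fat, Lect2 is a chemotactic protein linked to muscle insulin resistance, Fetub is a protease inhibitor of the fetuin family, and Rbp4 carries retinol in plasma together with transthyretin. Transcription of Fgf21 is known to be switched on by PPAR alpha and by the amino acid stress factor ATF4.

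The promoters of Fgf21, Inhbe and Angptl8 are shown because all 3 hold TGATGCAA (TTGCATCA on the other strand), the core of the composite element that ATF and C/EBP factors can bind. They run from 250 bases before to 50 bases after the annotated start site, 5′ to 3′ on the gene's strand, and come from RefSeq on build GRCr8. Capitals mark TGATGCAA or TTGCATCA, the E-box CACGTG and the TATA box TATAAA. The Fgf21 window is chr1:105221327-105221626 on the minus strand, the Inhbe window is chr7:65064470-65064769 on the minus strand, and the Angptl8 window is chr8:28652305-28652604 on the plus strand.
Fgf21: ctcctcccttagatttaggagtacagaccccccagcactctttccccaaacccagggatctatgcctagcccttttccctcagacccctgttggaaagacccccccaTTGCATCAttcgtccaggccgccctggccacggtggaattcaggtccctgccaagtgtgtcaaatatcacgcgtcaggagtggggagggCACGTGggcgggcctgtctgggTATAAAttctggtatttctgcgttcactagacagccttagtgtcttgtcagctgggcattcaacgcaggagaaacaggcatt
Inhbe: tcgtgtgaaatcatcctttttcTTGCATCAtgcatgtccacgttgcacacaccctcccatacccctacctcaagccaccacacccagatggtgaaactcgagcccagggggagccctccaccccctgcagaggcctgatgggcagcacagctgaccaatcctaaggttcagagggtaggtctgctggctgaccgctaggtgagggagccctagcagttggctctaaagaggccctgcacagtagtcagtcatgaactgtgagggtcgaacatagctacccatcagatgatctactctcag
Angptl8: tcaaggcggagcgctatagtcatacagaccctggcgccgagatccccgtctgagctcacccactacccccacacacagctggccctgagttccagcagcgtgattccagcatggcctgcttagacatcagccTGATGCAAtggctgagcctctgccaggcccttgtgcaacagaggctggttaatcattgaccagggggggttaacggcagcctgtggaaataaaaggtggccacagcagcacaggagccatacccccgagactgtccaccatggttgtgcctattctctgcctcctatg

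The core began 143 bases upstream of the start site in Fgf21, 228 in Inhbe and 118 in Angptl8. It was found in 3 of the 8 windows of the hepatokines (7 of the 8 genes had a window, and Gdf15 had 2) and in 266 of 33469 RefSeq rat promoters of the same length, or 0.795%. Both strands were searched for each motif. The E-box CACGTG was found in Fgf21 alone, 54 bases upstream, and in 6.42% of all promoters. The TATA box TATAAA was found in 4 of the 8 windows, those of Fgf21, Angptl4, Rbp4 and 1 of the pair of Gdf15, and in 14.2% of all promoters, the matches on both strands in Angptl4 overlapping each other. The nuclear receptor motif AGGTCA was found in both Gdf15 windows and in 16.2% of all promoters. The direct repeat of AGGTCA with 1 base between, the element PPAR alpha can bind, was found in 0 of the 8 windows and in 0.0538% of all promoters, and the D-box TTATGTAA, bound by clock output factors, in 0 of the 8 and in 0.893%. A match is a string of letters in this window and says nothing of whether a factor binds there.

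**Figure D1:**
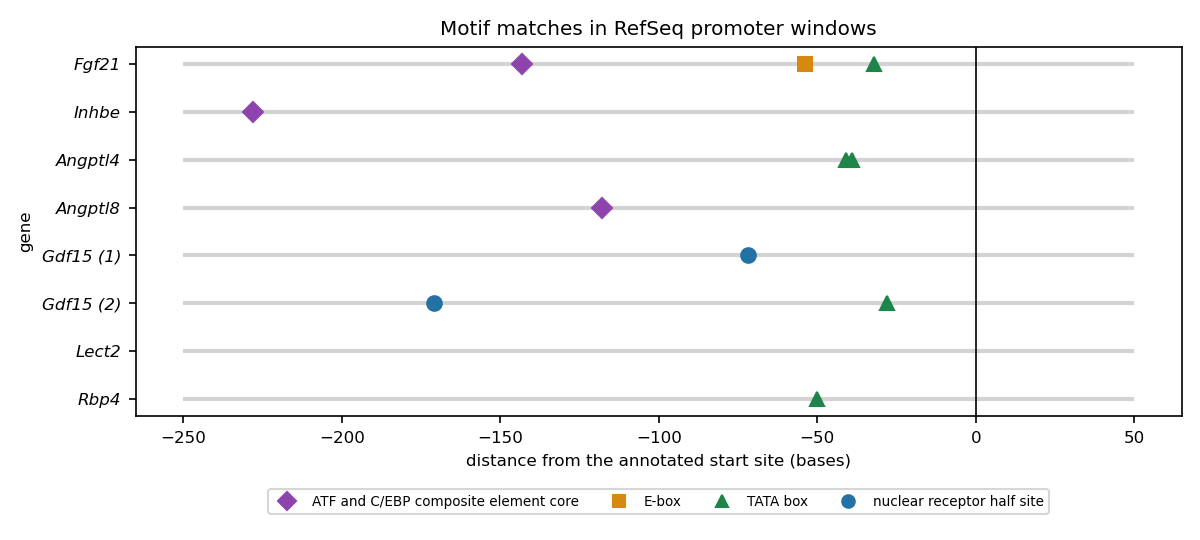
Motif matches in the promoter windows of the hepatokines (x axis, distance in bases from the annotated start site, which is the vertical line; y axis, gene, with Gdf15 shown as its 2 windows). The purple diamonds show the ATF and C/EBP core in Fgf21, Inhbe and Angptl8, between 118 and 228 bases upstream, and Lect2 has no match.

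In the tables' own coordinates, whose rat build is not named, Fgf21 (ENSRNOG00000020990) lies on chromosome 1 from 101595579 to 101596822 on the minus strand, and Inhbe (ENSRNOG00000007601) on chromosome 7 from 70640075 to 70643169 on the minus strand. Angptl4 (ENSRNOG00000007545) lies on chromosome 7 from 18627808 to 18634079 on the minus strand, and Angptl8 (ENSRNOG00000011490) on chromosome 8 from 22856539 to 22858565 on the plus strand. Gdf15 (ENSRNOG00000019661) lies on chromosome 16 from 20555395 to 20557978 on the plus strand, and Lect2 (ENSRNOG00000012189) on chromosome 17 from 8489266 to 8495496 on the plus strand. Fetub (ENSRNOG00000001806) lies on chromosome 11 from 81648885 to 81660395 on the minus strand, and Rbp4 (ENSRNOG00000015518) on chromosome 1 from 256806472 to 256813711 on the minus strand. The values cover each gene as a whole, and whether reads were counted by strand is not given in the sources used here.

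Library totals ran from 52054644 to 75118153 units of estimated counts, and 10250 to 11082 genes reached 1 FPKM (fragments per kilobase of transcript, scaled to library size) per library. All 9 hepatocyte markers were measured in every library, and their summed level lay between 57913 and 121412 FPKM. Of 6 adipocyte markers, Lep and Plin1 were at 0 FPKM in every library and Adipoq did not exceed 0.0258 FPKM, while Cfd and Cidec, which liver also expresses, were measured throughout. Control d23 replicate 3 stood apart: its Pearson r over genes with the other day 23 libraries was 0.892 to 0.911 and with the day 63 libraries 0.904 to 0.932, whereas the other 5 day 23 libraries correlated at 0.818 to 0.871 with day 63. Inhbe was 20.02 FPKM and Fgf21 6.60 FPKM in that library, against at most 0.07 and 0.29 FPKM in the other 5, so values without it stand beside the results at day 23 and for age in controls. Whether this library carries the wrong label, or its rat was in another feeding state, was not tested, and it is kept as the library labelled control d23 replicate 3. Fits without it that go beyond leaving out 1 library in edgeR were added after the data were seen.

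Per length of transcript, Rbp4 and Fetub were by far the most abundant of the 8, followed by Lect2 except in the leucine group, where the mean of Angptl8 (106.3 FPKM) was above that of Lect2 (87.6 FPKM). Rbp4 averaged between 3387 and 6828 FPKM over the 7 groups, Fetub between 1766 and 5734 and Lect2 between 87.6 and 237. Rbp4 and Fetub overlapped in both day 23 groups and not in the day 63 or day 211 groups, where Rbp4 was the higher. Outside day 23, where Inhbe was low, Angptl4, Angptl8 and Inhbe otherwise came next, in an order that differed between groups. Gdf15 and Fgf21 had the lowest means in the day 63 and day 211 groups, and over all 7 groups they had means of 0.517 to 17.6 FPKM for Gdf15 and 0 to 31.2 FPKM for Fgf21.

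**Figure D2:**
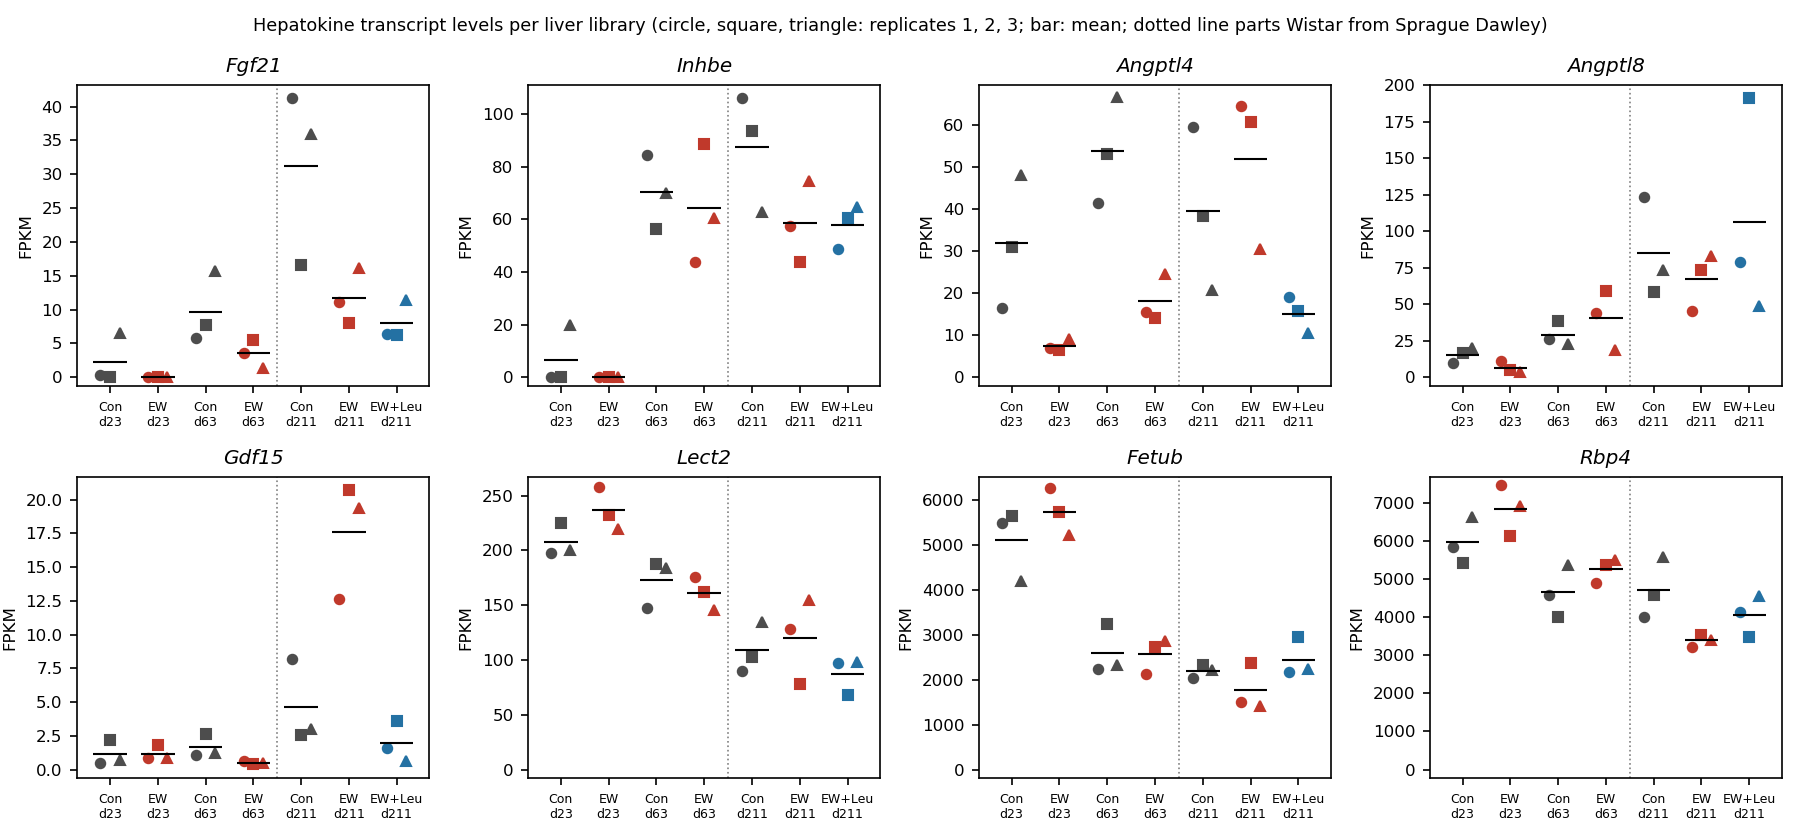
FPKM of each of the 8 hepatokines (y axes, linear, from 0) in the 21 liver libraries by group (x axes), with circles, squares and triangles for replicates 1, 2 and 3, a bar for the group mean, and a dotted line between the Wistar and SD tables. Inhbe is at or near 0 FPKM in 5 of the 6 day 23 libraries and between 43.7 and 88.7 FPKM in the 6 at day 63, and Gdf15 is highest in the 3 early weaned day 211 libraries, at 12.7, 20.7 and 19.4 FPKM.

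Between day 23 and day 63 the early weaned Wistar livers gained Inhbe, Fgf21, Angptl8 and Angptl4 and lost Fetub and Lect2. Inhbe was 0, 0 and 0 FPKM at day 23 and 43.7, 88.7 and 60.6 FPKM at day 63. The group means differed at least 982-fold, taking as the floor 12 count units (3 fragments) per library, which is 0.0655 FPKM (edgeR quasi-likelihood test, adjusted p = 0.0141). For this subunit of activin E, every day 63 library therefore stood far above a day 23 group in which no fragment was counted.

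Fgf21 was likewise 0, 0 and 0 FPKM at day 23 and 3.66, 5.55 and 1.34 FPKM at day 63, at least 12.4-fold higher over a floor of 0.284 FPKM (adjusted p = 0.0155). Both Fgf21 and Inhbe passed the filter on low counts without any early weaned day 23 library above its cutoff, so their being tested already required reads elsewhere. Angptl8, the insulin-responsive member of its family, was 10.9, 4.86 and 3.93 FPKM at day 23 and 43.7, 59.4 and 18.6 FPKM at day 63. Its groups did not overlap, and it rose by 2.74 (SE 0.50) on the log2 scale (adjusted p = 0.00514). Angptl4, the PPAR alpha target, was 6.94, 6.58 and 9.0 FPKM at day 23 and 15.6, 14.1 and 24.5 FPKM at day 63. It rose by 1.40 (SE 0.35, adjusted p = 0.017), again with no overlap.

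Fetub, the fetuin family protease inhibitor, went the other way, from 6267, 5725 and 5211 FPKM to 2115, 2725 and 2863 FPKM, a fall of 1.04 (SE 0.21) on the log2 scale (adjusted p = 0.0071). Every day 63 library was below every day 23 library, and the day 63 mean was 0.448 of the day 23 mean. Lect2 moved less, from 258, 232 and 220 FPKM to 176, 162 and 146 FPKM, and fell by 0.43 (log2, SE 0.14; adjusted p = 0.0399). Gdf15 (log2 difference -1.05, adjusted p = 0.203) and Rbp4 (-0.25, adjusted p = 0.244) were lower at day 63 without passing the test. In all, 4 of the 8 rose and 2 fell, where 13.5% of the 15416 genes tested rose, 13.5% fell and 27% were called in either direction. The groups of all 8 did not overlap, 4 higher and 4 lower, against 21.3% of genes higher, 31% lower and 52.2% in all. The calls of Angptl4 and Lect2 depended on single libraries: Angptl4 gave adjusted p = 0.059 without early weaned d23 replicate 1, 0.0595 without its replicate 2 and 0.064 without early weaned d63 replicate 3, and Lect2 gave 0.0703 to 0.133 without any 1 of early weaned d23 replicates 1 and 2 and d63 replicates 1, 2 and 3.

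Markers of the liver's cell types differed between these ages too. In the early weaned the summed hepatocyte markers were 57913 to 67462 FPKM at day 23 and 84453 to 92430 FPKM at day 63, with 5 of 9 risen and 2 fallen. The summed endothelial markers were 95.3 to 119.8 FPKM and then 38.0 to 60.3 FPKM, with 3 of 6 fallen, and the stellate cell markers 29.1 to 37.4 FPKM and then 13.4 to 15.8 FPKM, with 2 of 7 fallen. Lymphocyte markers summed to 1.07 to 1.33 FPKM and then 3.24 to 3.93 FPKM, with 2 of 7 risen. In controls the endothelial (1 of 6 fallen), stellate (2 of 7 fallen) and lymphocyte sums (3 of 7 risen) did not overlap between the ages in the same directions, while the hepatocyte sums overlapped. The part of these markers in the results for age was not tested.

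In controls the same ages gave a call for Fetub alone with all libraries. Without control d23 replicate 3 they gave a call for 4 members. The genes called over the whole table were 6001 in that fit, against 2710 of 15416 tested with all libraries. Fetub was 5478, 5648 and 4188 FPKM at day 23 and 2228, 3235 and 2331 FPKM at day 63, and fell by 0.97 (log2, SE 0.20; adjusted p = 0.0141). All 3 day 63 libraries were below all 3 day 23 libraries. With 1 of 8 called, the share was read against 17.6% of all genes tested, of which 9.61% fell. The groups of 2 members did not overlap and were higher at day 63, and those of 3 were lower, against 16.7% of genes higher, 15.7% lower and 32.4% in all. The Fetub call was not kept without control d23 replicate 1 (adjusted p = 0.0577), d23 replicate 2 (0.0535), d63 replicate 1 (0.058) or d63 replicate 3 (0.0567).

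Inhbe in controls was 0.07, 0 and 20.02 FPKM at day 23 and 84.5, 56.4 and 70.2 FPKM at day 63. The groups did not overlap, but the day 23 spread was set by replicate 3, and the difference did not pass the test (adjusted p = 0.219). Fgf21 was 0.29, 0.10 and 6.60 FPKM and then 5.75, 7.66 and 15.7 FPKM, with 1 day 23 library inside the day 63 range (adjusted p = 0.265). Angptl4 was 16.5, 31.0 and 48.0 FPKM and then 41.5, 53.1 and 66.6 FPKM (log2 difference 0.76, SE 0.35, adjusted p = 0.144), again with replicate 3 the highest at day 23. Without control d23 replicate 3, adjusted p was 8.58e-05 for Inhbe, 0.0018 for Fgf21, 0.0146 for Angptl4 (log2 difference 1.19) and 0.00256 for Fetub (-1.09), and the genes called over the whole table went from 2710 to 6001. Angptl8 (0.94, adjusted p = 0.18, no overlap), Gdf15 (0.53, 0.548), Lect2 (-0.26, 0.209) and Rbp4 (-0.35, 0.135) were not called by edgeR with all libraries, nor without replicate 3. DESeq2 without replicate 3 called Angptl8 (1.19, adjusted p = 0.043).

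Among the Wistar livers, Inhbe and Fgf21 were at or near 0 where the mean of the ATF4 stress list was high. Apart from control d23 replicate 3, this split was also that of age. The list of ATF4 stress response genes (18 genes, among them Chac1, Trib3 and Ddit4) had a mean log2(FPKM + 1) of 3.98 to 4.34 in the 5 day 23 libraries that held Inhbe at 0.07 FPKM or less and Fgf21 at 0.29 FPKM or less. It was 2.53 to 2.66 in the 6 day 63 libraries and 2.59 in control d23 replicate 3, the 7 libraries with Inhbe at 20.02 FPKM or more. From day 23 to day 63, 8 of the 16 tested genes of the list fell and 0 rose in controls (median log2 difference -1.35, against -0.04 over all genes), and 8 fell and 1 rose in the early weaned (-1.66, against -0.02). Without control d23 replicate 3, 10 of 17 tested fell and 1 rose in controls (-1.62, against 0.02). Chac1, which degrades glutathione, fell by 8.87 (SE 1.72) on the log2 scale in the early weaned, and Ddit4, an inhibitor of mTORC1, fell by 6.02 (SE 0.99), while Atf5 rose by 1.97 (SE 0.59). Not every listed gene split the libraries. Asns was 1.24 to 2.64 FPKM in the 5 day 23 libraries and 0.56 to 1.55 FPKM at day 63, and Phgdh and Psat1 overlapped as well. Gdf15, another known stress-responsive gene, was 0.52 to 2.19 FPKM over the 6 day 23 libraries and 0.38 to 2.62 FPKM over the 6 at day 63, ranges that overlapped. In SD livers the list mean was 2.75 to 2.97 in controls, 2.58 to 2.97 in the early weaned and 2.34 to 2.57 with leucine. Fgf21 there was 16.6 to 41.2, 7.95 to 16.1 and 6.26 to 11.4 FPKM in the same order. Inhbe was 43.8 FPKM or more in every SD library. The part of the ATF4 genes in the levels of Inhbe and Fgf21 was not tested.

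**Figure D3:**
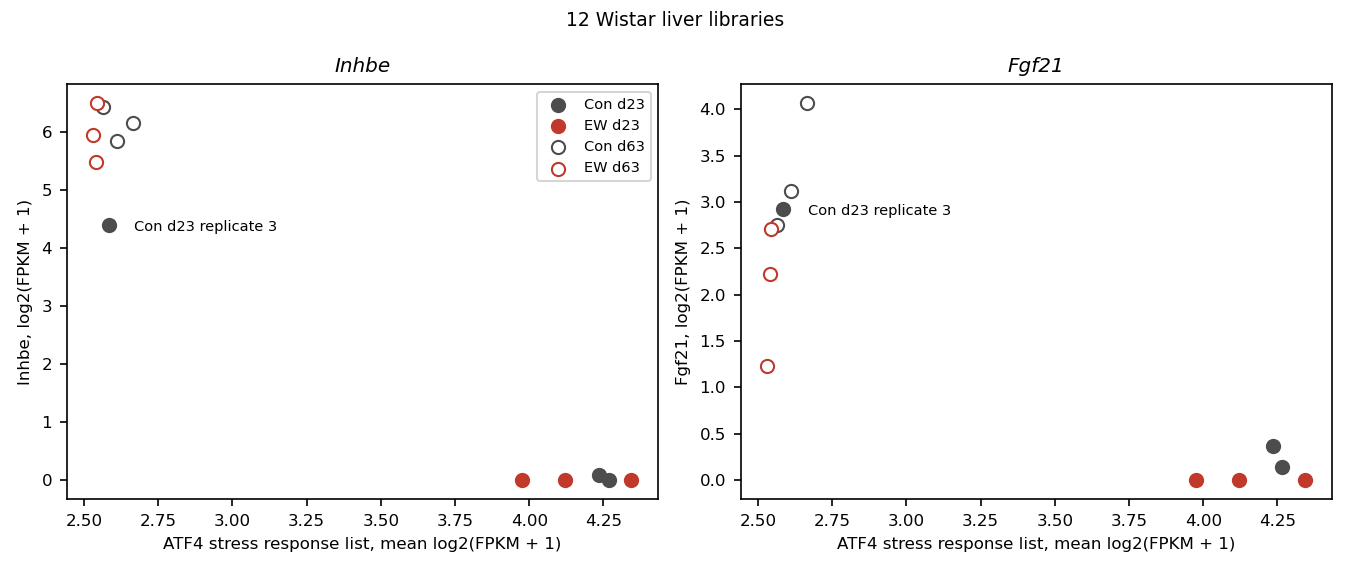
Inhbe and Fgf21 (y axes, log2(FPKM + 1)) against the mean log2(FPKM + 1) of the ATF4 stress response list (x axes) in the 12 Wistar libraries, grey for controls, red for early weaned, filled for d23 and open for d63. The 5 libraries with a list mean of 3.98 or more lie at or near 0 for both genes. Control d23 replicate 3 lies within the day 63 range on the x axis and for Fgf21, and below it for Inhbe (20.02 FPKM against 43.7 to 88.7 FPKM).

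Other genes of the same families differed between the ages too. Among 20 other secreted liver factors, 5 rose and 4 fell from day 23 to day 63 in the early weaned. Inhbc, the subunit most like that of activin E, rose by 4.73 (SE 1.05) and Inhba by 5.76 (SE 1.66), while Fst, which encodes the activin antagonist follistatin, fell by 11.81 (SE 1.87). Inhba was near the floor, at 0 to 0.04 FPKM at day 23 outside control replicate 3 and 0.37 to 2.21 FPKM at day 63. Inhbc was 1.00 to 2.20 and 32.0 to 54.2 FPKM in the same libraries. Fst was 341 ± 216 FPKM (SD, n = 3) in the early weaned at day 23 and 0.0833 ± 0.144 FPKM at day 63, and in controls 165 ± 165 FPKM and then 0.24 ± 0.0794 FPKM, with control d23 replicate 3 at 3.47 FPKM. Igfbp1, an insulin-suppressed binding protein of IGF1, fell by 7.39 (SE 1.08) and Igf1 rose by 2.28 (SE 0.27) in the early weaned. In controls 3 rose and 4 fell, among them Fst (log2 difference -9.38, adjusted p = 0.00825) and Igf1 (1.94, adjusted p = 0.0023), and without replicate 3 5 rose and 5 fell, with Fst at adjusted p = 1.13e-04 and Igf1 at 8.33e-05.

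The list of the lipoprotein lipase system and partners in plasma, which also holds transthyretin (Ttr), had 9 tested genes. Of these 5 rose and 1 fell in the early weaned and 2 rose and 1 fell in controls (5 and 2 without control d23 replicate 3). The lipase itself, Lpl, fell by 3.08 (SE 0.36) in the early weaned, from 13.4 ± 0.872 to 1.46 ± 0.977 FPKM (SD, n = 3), and by 1.83 (SE 0.34) in controls, from 8.73 ± 0.510 to 2.45 ± 0.176 FPKM. Hepatic lipase, Lipc, rose in both, by 1.74 (SE 0.25) and by 1.10 (SE 0.24). Transthyretin, Ttr, the plasma partner of Rbp4, rose by 1.92 (SE 0.31) in the early weaned.

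At day 23, early weaned livers had lower Angptl4 in every library than any control, though the difference did not pass the test. Angptl4 was 16.5, 31.0 and 48.0 FPKM in controls and 6.94, 6.58 and 9.0 FPKM in the early weaned, a mean 4.24-fold higher in controls. The log2 difference was -2.11 (SE 0.36), with adjusted p = 0.17 and rank 9 by p among all genes tested. Without control d23 replicate 3, the highest, it was -1.68 (adjusted p = 0.172). Angptl8 was 9.73, 16.5 and 19.96 FPKM in controls and 10.9, 4.86 and 3.93 FPKM in the early weaned, ranges that overlapped in 1 library (-1.25, SE 0.48, adjusted p = 0.784, and -1.01, adjusted p = 0.685, without replicate 3).

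The 3 early weaned libraries held no fragment of Fgf21 or Inhbe. The controls held few outside replicate 3: Fgf21 at 0.29 and 0.10 FPKM and Inhbe at 0.07 and 0 FPKM, about the floor or below it, so no fold is given without that library. Lect2, Fetub and Rbp4 overlapped between the groups and were 0.14 to 0.17 higher on the log2 scale in the early weaned, and Gdf15 differed by 0.02 (SE 0.58, adjusted p = 1). Without control d23 replicate 3 these differences were 0.14, 0.02 and 0.25 for Lect2, Fetub and Rbp4 and -0.22 for Gdf15, and by edgeR 0 of the 8 were called, with adjusted p = 0.379 for Fgf21 and 0.538 for Inhbe. By edgeR 0 of the 8 were called at this age, against 0.013% of all genes. An unadjusted p under 0.05 was found for 4, the last of them Angptl8 at rank 459 by p among all genes tested. DESeq2 called 3, Fgf21, Angptl4 and Inhbe, where over all genes it called 48 higher and 65 lower. Without replicate 3 it called the same 3 (adjusted p = 0.0136, 1.27e-04 and 0.0373), with 110 higher and 71 lower over all genes. In that fit the controls of Fgf21 and Inhbe were about the floor. The groups of 2, Fgf21 and Angptl4, did not overlap and were lower, against 4.12% of genes lower and 8.3% in either direction. The summed hepatocyte markers also did not overlap, at 75968 to 121412 FPKM in controls and 57913 to 67462 FPKM in the early weaned, though 5 of the 9 were higher and 0 were called. All 4 tested erythroid markers were lower, with sums of 2764 to 3736 FPKM and 1865 to 2580 FPKM and 0 called. The part of both lists in these results was not tested.

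At day 63 Angptl4 was again lower in every early weaned library, at 41.5, 53.1 and 66.6 FPKM in controls and 15.6, 14.1 and 24.5 FPKM in the early weaned. The log2 difference was -1.48 (SE 0.35, adjusted p = 0.505), with controls 2.97-fold higher by their means. Gdf15 was 1.06, 2.62 and 1.22 FPKM in controls and 0.66, 0.38 and 0.51 FPKM in the early weaned (-1.56, SE 0.60, adjusted p = 0.768). All 3 early weaned libraries were below all 3 controls at these low levels. Fgf21, at 5.75, 7.66 and 15.7 FPKM against 3.66, 5.55 and 1.34 FPKM, also did not overlap (-1.37, SE 1.19, adjusted p = 0.967).

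Inhbe at day 63 overlapped widely, at 84.5, 56.4 and 70.2 FPKM in controls and 43.7, 88.7 and 60.6 FPKM in the early weaned. Angptl8 was 26.0, 38.8 and 23.0 FPKM against 43.7, 59.4 and 18.6 FPKM, so that the early weaned group held both the highest and the lowest library. Lect2, Fetub and Rbp4 overlapped, with log2 differences of -0.01, 0.07 and 0.27. By edgeR 0 of the 8 were called, as were 0% of all genes. An unadjusted p under 0.05 was found for 2, Angptl4 at rank 46 by p among all genes tested and Gdf15 at rank 482. DESeq2 called 1, Angptl4 (-1.47, adjusted p = 0.0123), where over all genes it called 31 higher and 63 lower. The groups of 3 did not overlap, all lower in the early weaned, against 18.6% of genes in either direction and 13.7% lower. Whether the effect of early weaning differed between day 63 and day 23, which is also whether the age difference differed between the groups, was tested directly. By edgeR 0 of the 8 passed (0.00649% of all genes did). An unadjusted p under 0.05 was found for 3, Inhbe, Fgf21 and Angptl8, at ranks 171, 272 and 286 by p. DESeq2 called 2, Inhbe and Fgf21, where over all genes it called 19 positive and 27 negative differences. Without control d23 replicate 3 neither tool called any of the 8, with adjusted p = 0.554 for Inhbe, 0.557 for Fgf21 and 0.601 for Angptl8 by edgeR.

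Markers of some other cell types were lower in the early weaned at day 63 as well. Those of stellate cells (3 higher and 4 lower, median -0.30) and cholangiocytes (2 higher and 4 lower, median -0.54) were mixed. All 8 Kupffer cell, 6 tested endothelial, 7 lymphocyte and 4 tested erythroid markers were lower (median log2 differences -0.43, -0.64, -1.17 and -0.94, against -0.01 over all genes), and 0 were called. Their sums overlapped between the groups, at 249.9 to 486.9 FPKM in controls and 200.1 to 281.8 FPKM in the early weaned for Kupffer cells, 54.1 to 89.5 and 38.0 to 60.3 FPKM for endothelium, 3.54 to 8.43 and 3.24 to 3.93 FPKM for lymphocytes, and 291 to 4451 and 472 to 1862 FPKM for erythroid cells. Their part in the differences of Angptl4, Gdf15 and Fgf21 was not tested. The core clock list separated the groups at this age, with a mean log2(FPKM + 1) of 2.70 to 2.78 in controls and 2.86 to 3.17 in the early weaned. Of its 17 tested genes 13 were higher and 4 lower (median 0.61), with 0 called. The time of day of sampling is not in the labels, and the part of the clock genes in these differences was not tested.

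The PPAR alpha targets measured beside Angptl4 had mostly negative differences at day 63, and at day 23 only as long as control d23 replicate 3 was counted. None passed the test at either age. At day 63, 18 of 20 were lower in the early weaned (median log2 difference -0.44, against -0.01 over all genes), and the smallest p were those of Cyp4a3 (-1.22, adjusted p = 0.64) and Acot2, a mitochondrial acyl-CoA thioesterase (-1.56, adjusted p = 0.74). At day 23, 17 of 20 were lower with all libraries (-0.42, against -0.03 over all genes), and 10 of 20 without replicate 3 (0.03, against 0). The list mean was 5.81, 5.61 and 6.71 on the log2(FPKM + 1) scale in day 23 controls and 5.43, 5.83 and 5.83 in the early weaned, so that only replicate 3 lay above the early weaned. Acot2 and Plin2, a lipid droplet coat protein, had the smallest p at day 23 (-2.03, adjusted p = 0.58, and -2.64, adjusted p = 0.603), with -0.86 and -0.77 (both adjusted p = 0.479) without that library, which also had the highest Angptl4 of the 6.

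In adult SD livers at day 211, early weaned libraries had less Fgf21 and Rbp4 and more Gdf15 than every control library, and none of the 8 passed the edgeR test. Gdf15 was 8.19, 2.58 and 3.03 FPKM in controls, 12.7, 20.7 and 19.4 FPKM in the early weaned and 1.61, 3.63 and 0.668 FPKM in the early weaned with leucine. The early weaned libraries were the 3 highest of the 9, and the leucine libraries overlapped the controls. Against controls the early weaned had a log2 difference of 1.76 (SE 0.58, adjusted p = 0.167), and leucine against no leucine by -3.02 (SE 0.62, adjusted p = 0.0661). Both values rest on the same early weaned libraries, so they are not independent of each other. Both passed under DESeq2 (adjusted p = 0.0249 and 1.12e-05). The second also passed under limma on log2(FPKM + 1), where it was -2.74 (adjusted p = 0.0373).

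Fgf21 was 41.2, 16.6 and 36.0 FPKM in controls, 11.2, 7.95 and 16.1 FPKM in the early weaned and 6.45, 6.26 and 11.4 FPKM with leucine. Every library of both early weaned groups was below every control, and those groups overlapped each other. The log2 difference from controls was -1.62 (SE 0.37, adjusted p = 0.0757) without and -2.0 (SE 0.38, adjusted p = 0.239) with leucine, both against the same controls, and that between the early weaned groups was -0.38. DESeq2 called the first (adjusted p = 9.85e-04) and the second (1.14e-04).

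Rbp4 was 4000, 4571 and 5584 FPKM in controls, 3225, 3540 and 3396 FPKM in the early weaned and 4129, 3475 and 4552 FPKM with leucine. The early weaned libraries were all below the controls (log2 difference -0.69, SE 0.18, adjusted p = 0.0948), while the leucine libraries overlapped both groups. Inhbe was 105.9, 93.6 and 62.8 FPKM in controls, 57.5, 43.8 and 74.5 FPKM in the early weaned and 48.6, 60.4 and 64.9 FPKM with leucine, with differences from controls of -0.80 (SE 0.22, adjusted p = 0.109) and -0.65 (adjusted p = 0.396). In each early weaned group 1 Inhbe library was above the lowest control. For the early weaned without leucine against controls, DESeq2 called Rbp4 (adjusted p = 0.00624) and Inhbe (adjusted p = 0.0156).

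Angptl4 separated the leucine group from both others. It was 59.5, 38.3 and 20.8 FPKM in controls, 64.6, 60.6 and 30.4 FPKM in the early weaned and 19.2, 15.6 and 10.5 FPKM with leucine. The 3 leucine libraries were the lowest of the 9, and the other groups overlapped. The log2 difference was -1.63 from the early weaned (SE 0.41, adjusted p = 0.109) and -1.43 from controls (SE 0.41, adjusted p = 0.367), values that share the leucine libraries. DESeq2 called both (adjusted p = 0.00145 and 0.0239). With leucine against no leucine all 8 Kupffer cell and 6 tested endothelial markers were higher (median log2 differences 0.287 and 0.375). Of 7 lymphocyte markers 5 were lower (-0.224). Against control 8 Kupffer cell and 5 of 6 endothelial markers were higher with leucine (0.373 and 0.314). The sums of these 3 lists overlapped between the groups. Of 6 tested stellate cell markers 5 were higher and 1 lower with leucine against no leucine (median 0.471). Stellate sums did not overlap there, at 14.2 to 15.6 FPKM without and 15.8 to 20.1 FPKM with leucine, and overlapped the controls, at 11.4 to 16.6 FPKM. None of the markers of these lists was called, and their part in the results for Angptl4 was not tested.

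Angptl8 at day 211 was 123.6, 58.6 and 73.7 FPKM in controls, 45.3, 73.4 and 83.0 FPKM in the early weaned and 79.1, 191.3 and 48.6 FPKM with leucine. Leucine replicate 2 was the highest of the 9 and replicate 3 the second lowest, and no difference passed (coefficient of variation with leucine 70.7%). Lect2 was 89.7, 102.9 and 134.4 FPKM, then 128.0, 78.3 and 154.5 FPKM, then 97.3, 67.6 and 97.7 FPKM, and the 3 groups overlapped. Fetub was 2042, 2323 and 2221 FPKM in controls, 1511, 2378 and 1408 FPKM in the early weaned and 2172, 2937 and 2224 FPKM with leucine. Replicate 2 of the early weaned stood above the others of its group for Fetub, and without it the early weaned differed by -0.85 from controls (adjusted p = 0.0312) and leucine by 0.94 from no leucine (adjusted p = 0.0208), against -0.51 (adjusted p = 0.332) and 0.60 (adjusted p = 0.328) with it.

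Of the 8, edgeR called 0 for early weaning against control at day 211, where 0.719% of 15019 genes were called. An unadjusted p under 0.05 was found for 4, the last of them Gdf15 at rank 1249 by p among all genes tested. It called 0 for leucine against no leucine (0.36% of genes), with 4 at an unadjusted p under 0.05, the last Rbp4 at rank 1847. For leucine after early weaning against control it called 0 (0.0133%), with 3 at an unadjusted p under 0.05, the last Inhbe at rank 595. DESeq2 called 4, 2 and 2 of the 8. Over all genes it called 626 higher and 521 lower, 331 higher and 460 lower, and 115 higher and 94 lower in these comparisons. The groups did not overlap for 3 members in the first comparison, 1 higher and 2 lower, against 25% of genes (20.8% higher and 4.24% lower). They did not overlap for 2 members in the second, both lower, against 22.9% of genes (17.8% lower), and for 2 in the third, both lower, against 16.3% (6.39% lower).

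**Figure D4:**
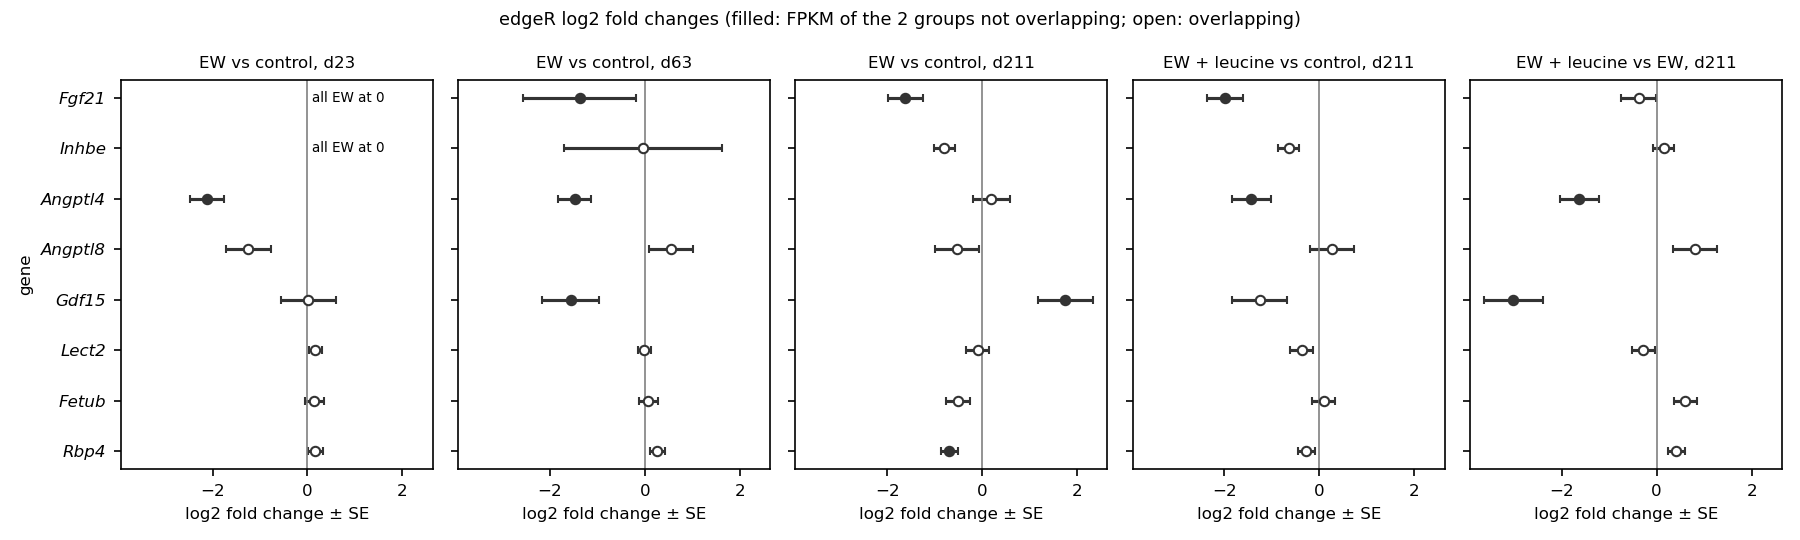
edgeR log2 fold changes with standard errors (x axes) of the 8 hepatokines (y axis) in the 5 treatment comparisons, filled where the FPKM of the groups did not overlap and open where they did. Fgf21 and Inhbe have no point in the day 23 panel, where all early weaned libraries were at 0. Angptl4 is negative and filled in 4 panels, from -2.11 to -1.43, and near 0 in early weaned against control at day 211 (0.20), and Gdf15 is 1.76 in that panel and -3.02 for leucine against no leucine.

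Other measured genes moved at day 211 in the same libraries. The core clock list had a mean log2(FPKM + 1) of 2.79 to 3.06 in controls, 2.32 to 2.66 in the early weaned and 3.03 to 3.23 with leucine, so that the early weaned libraries lay below both other groups, as they lay above both for Gdf15. Of its 18 tested genes, 3 fell (Clock, Tef and Hlf) and 1 rose (Npas2) in the early weaned against controls, and 3 rose (Cry2, Tef and Hlf) with leucine. The time of day of sampling is not in the labels, and the part of the clock genes in the results for Gdf15, Fgf21 and Rbp4 was not tested. All 6 cholangiocyte markers were higher than in controls both in the early weaned (median 0.50) and with leucine (median 0.57), with 0 called. With leucine against no leucine 2 were higher and 4 lower (median -0.04). Their sums were 8.26 to 13.5 FPKM in controls, 16.1 to 30.6 FPKM in the early weaned and 10.1 to 15.5 FPKM with leucine. By the sums the early weaned libraries lay above both other groups. By mean log2(FPKM + 1) they overlapped the leucine libraries, at 1.02 to 1.22 against 0.91 to 1.17. Of 9 hepatocyte markers 8 were lower in the early weaned than in controls (median -0.35), with 0 called and overlapping sums of 72133 to 78096 and 72936 to 79789 FPKM. The part of both lists in the results for Gdf15, Fgf21 and Rbp4 was not tested. Ttr, the plasma partner of Rbp4, was 11909 ± 195 FPKM in controls and 8730 ± 1012 FPKM in the early weaned (SD, n = 3; log2 difference -0.65, adjusted p = 0.0853).

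Of the 20 PPAR alpha targets, 16 were lower in the early weaned than in controls at day 211 (median -0.76, against 0.02 over all genes), with 0 called, and the smallest p were those of Slc25a20, the carnitine carrier (-0.77, adjusted p = 0.0651), and Hadha, of mitochondrial beta-oxidation (-0.77, adjusted p = 0.087). Angptl4, also a target, had a difference of 0.20 there. With leucine against no leucine the median of the list was 0.09, with 8 lower and 12 higher, while Angptl4 had -1.63. With leucine against control 17 of 20 were lower (median -0.50, against 0.01 over all genes) and 0 called, where Angptl4 had -1.43. All 9 tested genes of the lipoprotein lipase system and partners in plasma, Ttr among them, were lower in the early weaned, with 0 called (median -0.48). Apoc2, the activator of the lipase, had the smallest p (-0.94, adjusted p = 0.0595), followed by Apoa5 (-0.68, adjusted p = 0.0757). Of 17 tested other secreted liver factors 1 fell, Hamp, which encodes the iron hormone hepcidin (-1.55, SE 0.27, adjusted p = 0.0438). The lipogenic list, induced by insulin and carbohydrate as Angptl8 is, had 1 of 14 risen, Acacb (1.76, SE 0.31, adjusted p = 0.0446), and a median of 1.19. Of the 16 ATF4 stress genes 0 were called in any of the day 211 comparisons, and the medians were -0.21, -0.17 and -0.79 for early weaning, leucine against no leucine, and leucine against control.

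Of 16 listed receptors and coreceptors through which these proteins act, 11 were tested, and 0 were called by edgeR in the weaning and leucine comparisons. Gfral, the receptor of Gdf15, was at 0 FPKM in all Wistar libraries, SD controls and early weaned SD libraries, and averaged 0.0106 FPKM with leucine. Fgfr4 had group means of 14.0 to 17.8 FPKM, and Fgfr1, a receptor gene of Fgf21, was at 1.17 to 2.16 FPKM. The activin receptors Acvr1b and Acvr2a were at 3.47 to 5.16 and 4.25 to 4.76 FPKM by group means, and Acvr1c, the activin receptor best known from fat, at 0.287 to 0.426 FPKM. Between day 23 and day 63 1 receptor was called, Tie1, which fell by 1.59 (SE 0.28) in the early weaned.

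The genes most like each hepatokine were those of highest mean Pearson r over the 12 Wistar and the 9 SD libraries, among 10365 genes, a description in which the libraries share groups, ages and depth. For Angptl4 the first was Plin2, the lipid droplet coat protein (r = 0.871 Wistar, 0.850 SD), followed by Lnx2 and Acot3. Plin2 was 80.0 ± 15.0 FPKM in day 63 controls and 26.8 ± 4.14 FPKM in the early weaned, and 83.5 ± 33.2, 104 ± 23.6 and 53.6 ± 17.3 FPKM in the day 211 controls, early weaned and leucine groups (SD, n = 3), the order of the group means of Angptl4. For Fetub the closest were Aass, of lysine degradation, Nnmt, which methylates nicotinamide, and Cps1, the first enzyme of the urea cycle (mean r = 0.907, 0.907 and 0.896). For Lect2 they were Rpl23 and Rack1 of the ribosome and Eif3i of translation initiation (0.928, 0.921 and 0.904), and for Rbp4 Hsd17b10, Cox7a2l2 and Cyp2b1 (0.927, 0.840 and 0.823).

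For Inhbe the closest were Plekhb1, Slc26a1 and Cacybp (mean r = 0.904, 0.857 and 0.848), for Fgf21 Fam32a, Ei24 and Pank1 (0.863, 0.845 and 0.834), for Angptl8 Dicer1, AC114460 and Shroom1 (0.898, 0.819 and 0.812), and for Gdf15 Homez, Grpel2 and Maea (0.821, 0.811 and 0.789). Among themselves, Fgf21 and Inhbe had r = 0.892 over the Wistar and 0.709 over the SD libraries. Fetub and Inhbe had r = -0.935 over the Wistar libraries, where both differ by age, and Fetub and Lect2 had r = 0.852 in Wistar but -0.821 in SD.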

How the data were processed

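Liver RNA was sequenced in 21 rat libraries. The deposited tables, 1 for Wistar and 1 for SD, give FPKM computed by the authors and an unnormalized estimated count per gene, per the file headers. The aligner, counter and rat build are not stated in any source used here. Mouse builds (GRCm38, mm10) stand in the submitters' processing notes, while the tables hold Ensembl rat identifiers. Low count values piled up at multiples of 4, so 4 units were taken as 1 fragment and 12 units (3 fragments) as the floor of a library at 0.

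Each table was fitted alone over all its groups with edgeR 4.0.16 (quasi-likelihood test, TMM scaling, filterByExpr with a minimum count of 10, R 4.3.3), leaving 15416 genes in Wistar and 15019 in SD, and the script was tested on simulated data. A gene was called at a Benjamini-Hochberg adjusted p under 0.05 over all genes of the table, and groups did not overlap where every library of one exceeded every library of the other. Totals were 52054644 to 75118153 units of estimated counts per library. Alternatives were DESeq2 1.42.0, limma 3.58.1 on log2(FPKM + 1), log2(FPKM + 0.1) and log2(TPM + 1) with TPM derived from FPKM, no filter, RLE scaling, counts divided by 4, a fit of the 2 groups alone, a replicate block, and leaving out each library. DESeq2 and the list counts without control d23 replicate 3 were added after the data were seen.

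The text names the 8 hepatokines, for each the 3 genes of most alike pattern, and from 7 pathway lists the genes called or, where none was, those of smallest p. Other list genes (Fst, Inhbc, Ttr, Lpl and the receptors' levels among them) were chosen after their values were seen. Of 177 list symbols 171 were matched. The members and lists were chosen with earlier results of these data known. Replicate numbers are shared by the groups, but the labels do not say that they pair libraries, and same-numbered libraries deviated from their group means with r of -0.181 to 0.236.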

Additional observations from a re-analysis of the deposited data

How the results depend on the processing

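Over the members' single values, 937 of 1022 under an alternative kept direction and side of the threshold, 38 became called, 15 lost their call and 32 changed sign. The causes were not tested. For early weaning at day 23, genes called went from 2 to 5 with no filter, 113 by DESeq2 (3 members), 9, 4 and 7 by limma on log2(FPKM + 1), log2(FPKM + 0.1) and log2(TPM + 1), 1 with the replicate block and 1 with the 2 groups alone. At day 63 they went from 0 to 94 by DESeq2 (1 member), 2 by limma on log2(FPKM + 0.1) and 2 with the groups alone. For day 63 against day 23 in controls they went from 2710 to 4158 by DESeq2 and 281 with the groups alone, and the members called from 1 to 3 under each limma scale, 2 with the replicate block and 0 with the groups alone. For the difference of the weaning effects they went from 1 to 46 by DESeq2 (2 members), 2 under each limma scale and 0 with the block. At day 211 early weaning went from 108 to 1147 by DESeq2 (4 members), 182, 165 and 540 under the limma scales, 49 with the block, 188 with counts divided by 4 and 31 with the groups alone. Leucine against no leucine went from 54 to 113 with no filter, 791 by DESeq2 (2 members), 98 and 133 by limma on log2(FPKM + 1) and log2(TPM + 1), 154 with counts divided by 4 and 32 with the groups alone, and 1 member was called under each limma scale, with the block and with counts divided by 4. Leucine against control went from 2 to 5 with no filter, 209 by DESeq2 (2 members), 5 by limma on log2(FPKM + 1), 5 with the block and 4 with the groups alone.

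The replicate block, which the numbers do not justify as a pairing, called Angptl4 for age in controls (0.84) and for leucine against no leucine (-1.59), and not Lect2 for age in the early weaned (-0.43, which no filter also left uncalled). The limma scales reversed small differences: Fetub at day 63 (-0.0089, -0.0089 and -0.0286), Lect2 at day 211 (0.11, 0.11 and 0.19), Rbp4 in the difference of weaning effects (-0.0113, -0.0112 and -0.0406), Fgf21 there on log2(FPKM + 1) (-0.11), and Inhbe for leucine against no leucine on log2(TPM + 1) (-0.0242). They moved the median of all genes by up to 0.20 at day 211 and -0.15 for leucine, so that 145 rose and 37 fell at day 211 on log2(FPKM + 1) and 483 and 57 on log2(TPM + 1), against 63 and 45, and for leucine 26 and 72, and 32 and 101, against 27 and 27. For age they gave 1721 and 2817 on log2(FPKM + 1) in the early weaned, against 2085 and 2076, and 1456 and 1209 in controls, against 1229 and 1481.

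Leaving out each library in turn, genes called ranged from 1 to 6 at day 23, 0 to 3 at day 63, 646 to 6001 for age in controls, 1923 to 2997 for age in the early weaned, 0 to 4 for the difference of effects, 2 to 534 for early weaning at day 211, 1 to 539 for leucine against no leucine and 2 to 6 for leucine against control. Members called ranged from 0 to 4 for age in controls, 4 to 6 in the early weaned and 0 to 1 for early weaning and for leucine at day 211. Log2 differences that changed sign were Gdf15 at day 23 (-0.47 to 0.85), Fetub (-0.0224 to 0.26), Lect2 (-0.11 to 0.0504) and Inhbe (-0.35 to 0.18) at day 63, Fetub in the difference of effects (-0.16 to 0.12), Angptl4 (-0.11 to 0.57) and Lect2 (-0.28 to 0.12) at day 211, and Angptl8 (-0.45 to 0.61) and Fetub (-0.0483 to 0.17) for leucine against control. DESeq2 without control d23 replicate 3, an alternative added after the data were seen, called 181 genes at day 23 (3 members), 6827 for age in controls (5 members) and 117 for the difference of effects (0 members), and reversed Gdf15 at day 23 (-0.22) and Fetub in the difference of effects (0.0567). Where a library is left out, its group holds 2 and the spread is shared with the other groups.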

Other observations

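Summed over the 8 genes, the level was 11093 to 14009 FPKM in the 6 day 23 libraries, 7109 to 8602 FPKM in the 6 at day 63 and 5055 to 8135 FPKM in the 9 at day 211, and the 3 early weaned day 211 libraries were the lowest of all 21, at 5055, 6203 and 5182 FPKM. Nearly all of this sum is Fetub and Rbp4. Within groups, the coefficient of variation was above 60% for Gdf15 in day 23 controls (79.8%), day 211 controls (67.7%) and leucine libraries (76.9%), and for Angptl8 in leucine libraries (70.7%). It was 159% for Fgf21 and 172% for Inhbe in day 23 controls, where 1 library held nearly all fragments.

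Control d23 replicate 3 differed from the other 5 day 23 libraries in several genes tied to the hepatokines. Chac1 was 0.81 FPKM in it and 59.4 to 568 FPKM in the others, Igfbp1 473 FPKM against 5747 to 8427 FPKM, and Ddit4 5.62 FPKM against 121 to 269 FPKM. Plin2 was 75.7 FPKM against 3.40 to 9.12 FPKM, and Fabp1, the liver fatty acid binding protein, 4128 FPKM against 326 to 1100 FPKM. Inhbc was 29.2 FPKM against 1.00 to 2.20 FPKM. Chac1, Plin2 and Fabp1 lay within the day 63 range in this library. Igfbp1 (10.95 to 89.7 FPKM at day 63), Ddit4 (1.73 to 3.18 FPKM) and Inhbc (31.98 to 54.23 FPKM) lay outside it. Lpl, Rbp4 and Lect2 lay within the range of the other day 23 libraries and outside that of day 63. Lpl was 9.29 FPKM, against 8.29 to 14.29 FPKM at day 23 and 0.81 to 2.61 FPKM at day 63. These genes were chosen after their values were seen.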
